A study of Homo sapiens with 4 samples.

Results

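The Iroquois homeobox genes of human are 6 genes, IRX1 to IRX6, and all 6 were found by their gene symbols among the 20242 promoters measured. Chromatin immunoprecipitation sequencing (ChIP-seq) signal for trimethylated lysine 27 and lysine 4 of histone H3 (H3K27me3 and H3K4me3) is described here at these promoters. The cells were JMJD3c-hESCs, a derivative of the established human embryonic stem cell line SEES-3 that carries a Tet-inducible, HA-tagged and nuclear localised catalytic domain of the H3K27 demethylase JMJD3 (JMJD3c) on a piggyBac vector, and doxycycline (Dox) switches this domain on. All 4 groups carried the transgene and the constitutive reverse Tet transactivator, and the cells had been selected with puromycin as stable clones. They were grown without feeder cells and either left without Dox (−Dox) or given Dox at 1 µg/ml (+Dox), and were collected on day 3. There was 1 library per mark and condition, so no difference below has a replicate check and no p-value is given. A cell line without the transgene that received Dox was not analysed here. In these libraries an effect of Dox itself and an effect of JMJD3c therefore cannot be told apart. The paper did treat a line with a catalytically inactive JMJD3c with Dox, and reports no significant change in expression of its developmental genes. That line is not among the libraries described here.

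IRX proteins are transcription factors of the TALE class of homeobox proteins, whose homeodomain holds an additional loop. They pattern the neural tube, heart, kidney, retina and limbs of the embryo. Vertebrate genomes hold the genes as clusters that arose by duplication of an ancestral cluster, so that each gene has a counterpart in the other cluster. In human, IRX4, IRX2 and IRX1 lie on chromosome 5 and IRX3, IRX5 and IRX6 on chromosome 16. In embryonic stem cells, promoters of such developmental regulators often carry H3K27me3, which Polycomb repressive complex 2 deposits, together with H3K4me3, which marks promoters in use or ready for use. A promoter with both marks is called bivalent.

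The signal is coverage summed over 3 kb on each side of a transcription start site and scaled to the reads of the library. For H3K27me3, the value of 1 read was 1.27 in −Dox and 1.25 in +Dox. For H3K4me3, it was 0.972 in −Dox and 1.26 in +Dox. Read numbers obtained from these values are approximate. The 6 promoters together held about 260 and 262 reads of H3K27me3 and about 531 and 376 reads of H3K4me3 in −Dox and +Dox. Following the study's methods, a mark was called present above a signal of 20, which corresponded to 15.8 to 20.6 reads. All intervals below are 95% intervals of counting error between libraries, not between cultures. The cells were checked against marker genes. Of 8 pluripotency genes, 7 carried H3K4me3 only in −Dox, with a median H3K4me3 signal over all 8 of 120 in −Dox and 109 in +Dox, and the eighth was unmarked at its listed start. Of the markers of other cell types, 5 of 6 mesendoderm genes, 3 of 3 neuroectoderm genes and 1 of 4 fibroblast genes were bivalent in −Dox.

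The sequence just upstream of a pair of starts on chromosome 5 is shown because they differ in H3K27me3. IRX1 was bivalent in −Dox only, and IRX2 had almost no H3K27me3 in either condition. Each sequence is the 250 bases before the outermost annotated start in GRCh37 (hg19), read 5′ to 3′ on the strand of the gene, with every CG dinucleotide (CpG) in capitals. The regions are chr5:3595696-3595945 on the plus strand for IRX1 and chr5:2751792-2752041 on the minus strand for IRX2.
IRX1: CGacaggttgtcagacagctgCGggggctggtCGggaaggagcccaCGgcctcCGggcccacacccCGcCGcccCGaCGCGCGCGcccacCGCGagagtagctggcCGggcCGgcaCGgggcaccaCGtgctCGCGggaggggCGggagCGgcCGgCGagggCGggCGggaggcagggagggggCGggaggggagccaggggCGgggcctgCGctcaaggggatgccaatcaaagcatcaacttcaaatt
IRX2: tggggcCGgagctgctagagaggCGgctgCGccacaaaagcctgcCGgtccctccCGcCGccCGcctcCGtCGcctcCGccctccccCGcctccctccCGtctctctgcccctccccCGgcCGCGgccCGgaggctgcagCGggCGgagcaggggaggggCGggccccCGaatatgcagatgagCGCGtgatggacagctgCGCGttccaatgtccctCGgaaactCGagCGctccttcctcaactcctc

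The 250 bases of IRX1 held 29 CpG and those of IRX2 27, against a median of 14 over 19563 promoter sequences of the same length. The GC box, GGGCGG on either strand, occurred 6 times upstream of IRX1 and 4 times upstream of IRX2. It was found at least once in 48.9% of the 19563 sequences. The 250 bases of IRX4 and IRX6 held 31 and 15 CpG and 2 GC boxes each. The letters TATAAA occurred on neither strand in any of these 4, and in 9.80% of all sequences. A match of letters is a description and says nothing of binding.

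Before Dox, the clusters differed in H3K27me3 while every member carried H3K4me3, as did 12887 of all 20242 promoters. IRX1, IRX3, IRX5 and IRX6 were bivalent, that is 4 of 6 members against 9.42% of all promoters. IRX2 and IRX4 were H3K4me3-only, that is 2 of 6 against 54.2% of all promoters. No member was unmarked or carried H3K27me3 alone, against 6037 and 292 of the 18220 promoters whose window sequence was read. All 3 members of the chromosome 16 cluster were bivalent, and on chromosome 5 only IRX1 was. IRX4 was measured at an upstream start, and its canonical start lay outside the window. The bivalent members ranged from 37.7 to 142 in H3K27me3, whereas IRX2 and IRX4 lay at 4.94 and 0.

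IRX3 (ENSG00000177508, start chr16:54320699, minus strand) is the counterpart of IRX1 and acts in neural tube patterning and, with IRX5, in the heart. Its H3K27me3 signal was 142 (117 to 171) in −Dox and 161 (134 to 191) in +Dox, and it had the most H3K27me3 of the family in both. It ranked 193rd of 20242 promoters in −Dox and 141st in +Dox. The ratio of +Dox to −Dox was 1.13 (0.873 to 1.47). Its H3K4me3 signal was 78.1 in −Dox and 73.8 in +Dox, with a ratio of 0.945 (0.669 to 1.35). Neither scaled signal differed beyond counting error at this promoter.

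IRX5 (ENSG00000176842, start chr16:54964777, plus strand) controls the gradient of repolarisation across the ventricular wall and the differentiation of retinal bipolar cells. Its H3K27me3 signal was 102 (80.5 to 126) in −Dox and 113 (91.5 to 140) in +Dox, with a ratio of 1.12 (0.820 to 1.53). The H3K4me3 signal was 77.8 in −Dox and 79.0 in +Dox, with a ratio of 1.02 (0.720 to 1.43). As at IRX3, the library-scaled H3K27me3 signal was high in both conditions and any change in it was within counting error. The study's immunoblots showed less total H3K27me3 after Dox. By immunoprecipitation with quantitative PCR, the paper also reports less H3K27me3 at promoters of developmental genes. From its ChIP-seq it describes a reduction specific to promoters, with enhancers and repeats not significantly changed. A loss shared across the genome would not appear in a signal scaled to the library.

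IRX6 (ENSG00000159387, start chr16:55358115, plus strand) is expressed in retinal bipolar cells and is the least studied member of its cluster. Its H3K27me3 signal was 42.6 (29.9 to 60.3) in −Dox and 26.8 (16.2 to 40.1) in +Dox, with a ratio of 0.630 (0.335 to 1.08). It was bivalent in both conditions, although the +Dox interval spans the threshold of 20, and the interval of the ratio included 1. The H3K4me3 signal was 42.2 in −Dox and 45.9 in +Dox, with a ratio of 1.09 (0.697 to 1.77), and IRX6 had the least H3K4me3 of the family in both conditions.

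IRX1 (ENSG00000170549, start chr5:3595946, plus strand) acts in lung, kidney and limb development. Its H3K27me3 signal was 37.7 (25.7 to 54.3) in −Dox, or about 30 reads, and 16.4 (8.64 to 27.8) in +Dox, or about 13 reads. The ratio of 0.436 (0.204 to 0.843) lay below 1 beyond counting error. The H3K4me3 signal was 88.9 in −Dox and 85.8 in +Dox, with a ratio of 0.965 (0.695 to 1.34). IRX1 was therefore bivalent in −Dox and H3K4me3-only in +Dox. The +Dox interval of its H3K27me3 spans the threshold of 20, so the change of class is less firm than the change of the ratio.

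IRX2 (ENSG00000170561, start chr5:2751776, minus strand), the counterpart of IRX5, takes part in the formation of the cerebellum. Its H3K27me3 signal was 4.94 (1.38 to 13) in −Dox and 4.47 (1.36 to 12.8) in +Dox, about 4 reads in each, below the median of all promoters of 6.09 and 5.97. Its H3K4me3 signal was the highest of the family, 163 (140 to 190) in −Dox and 124 (101 to 151) in +Dox. The H3K4me3 ratio was 0.760 (0.588 to 0.982), and the rank went from 141 to 665 among the 20242 promoters. This interval included 1 when the H3K4me3 libraries were scaled to the same total (0.603 to 1.01), and also when they were scaled over H3K4me3-only promoters.

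IRX4 (ENSG00000113430, start chr5:1887332, minus strand) is a regulator of the ventricular myocardium and the counterpart of IRX6. Its H3K27me3 signal was listed at 0 in −Dox and was 4.85 in +Dox, about 4 reads. The interval of a level of 0 ended at 4.68, and that of the +Dox value ran from 1.36 to 12.8. The interval of the ratio had a lower bound of 0.650 and no upper bound. The −Dox and +Dox values thus did not differ beyond counting error, and no ratio is given. A limit of 3 reads, as used for a count of 0, corresponds to a signal of 3.81. The H3K4me3 signal was 66.7 in −Dox and 62.6 in +Dox, with a ratio of 0.939 (0.637 to 1.37). The listed start lies 4293 bases from the start of the canonical transcript in GENCODE, outside the measured window, so the values of IRX4 describe an upstream start. The other 5 listed starts were at most 15 bases from the canonical one.

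**Figure D1:**
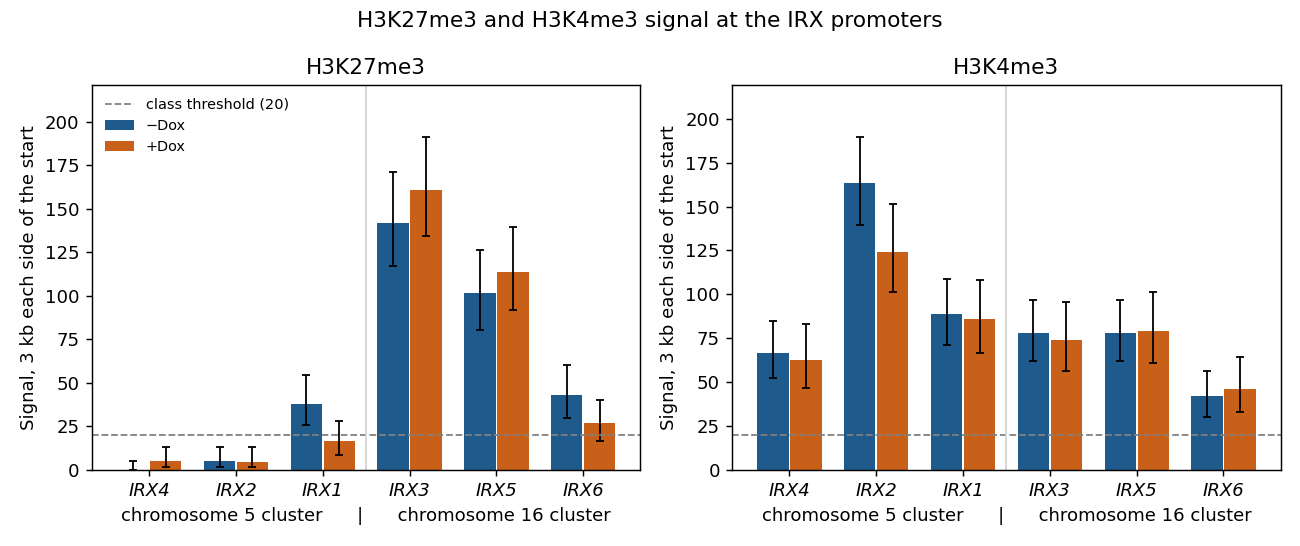
ChIP-seq signal (vertical axis, summed coverage) of H3K27me3 and H3K4me3 at the 6 IRX promoters in −Dox and +Dox, 1 library each, with bars for the 95% counting interval and a dashed line at the class threshold of 20. IRX3 and IRX5 had the highest H3K27me3 in both conditions, IRX2 and IRX4 lay below the threshold, and all 6 were above it in H3K4me3.

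After Dox, the H3K27me3 ratios of the members lay on both sides of 1. The summed H3K27me3 signal of the 6 promoters was 329 in −Dox and 327 in +Dox, with a ratio of 0.994 (0.832 to 1.18). This sum is dominated by IRX3 and IRX5. The chromosome 16 cluster summed to 286 in −Dox and 301 in +Dox, with a ratio of 1.05 (0.872 to 1.26). The chromosome 5 cluster summed to 42.6 in −Dox and 25.7 in +Dox, with a ratio of 0.604 (0.335 to 1.08). IRX1 gave 37.7 of the −Dox sum and 16.4 of the +Dox sum. The ratio of the chromosome 5 cluster was 0.580 (0.310 to 1.06) times that of the chromosome 16 cluster, an interval that includes 1.

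Of the 5 members with a ratio, 1 (IRX1) had an H3K27me3 ratio below 0.5 and 2 (IRX1 and IRX6) had one below 0.66. Over all promoters 21.5% had a ratio below 0.5 and 33.6% one below 0.66. Among bivalent promoters, for which a high −Dox value was required and low ratios are thereby favoured, these shares were 40.8% and 61.4%. The 4 bivalent members had 1 and 2 such ratios and do not stand apart from these shares. Ratios above 1 were found at 2 of the 4 bivalent members (IRX3 and IRX5), against 12.4% of bivalent promoters. The interval lay below 1 at 1 of the 4 (IRX1), against 48.6%, and above 1 at none of the 4, against 2.15%. The class changed from bivalent to H3K4me3-only at 1 of the 4 (IRX1), against 39.1%.

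The median bivalent promoter went from 43.0 to 24.2 in H3K27me3, with a median ratio of 0.570. Against the 1907 bivalent promoters, the ratio of IRX1 was at percentile 31.4, that of IRX6 at 57.7, that of IRX5 at 92.0 and that of IRX3 at 92.5. The level of H3K27me3 in −Dox moved with the ratio over bivalent promoters. Where it was between 20 and 50, the median ratio was 0.496 (1084 promoters). Where it was at least 100, the median ratio was 0.857 (304 promoters), and 34.2% of ratios were above 1. Within these ranges IRX1 was at percentile 39.6 and IRX6 at 68.6 of the lower one, and IRX5 was at 78.9 and IRX3 at 80.3 of the upper one. The IRX promoters thus lay inside the spread of bivalent promoters with a like amount of H3K27me3. With classes drawn on the mean of both conditions, a choice made after seeing the data, IRX3 and IRX5 were at percentiles 71.2 and 69.7 of 208 promoters with a mean of at least 100, whose median ratio was 0.974. IRX1 and IRX6 were then at 34.1 and 63.8 of 904 promoters with a mean between 20 and 50, whose median ratio was 0.531.

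**Figure D2:**
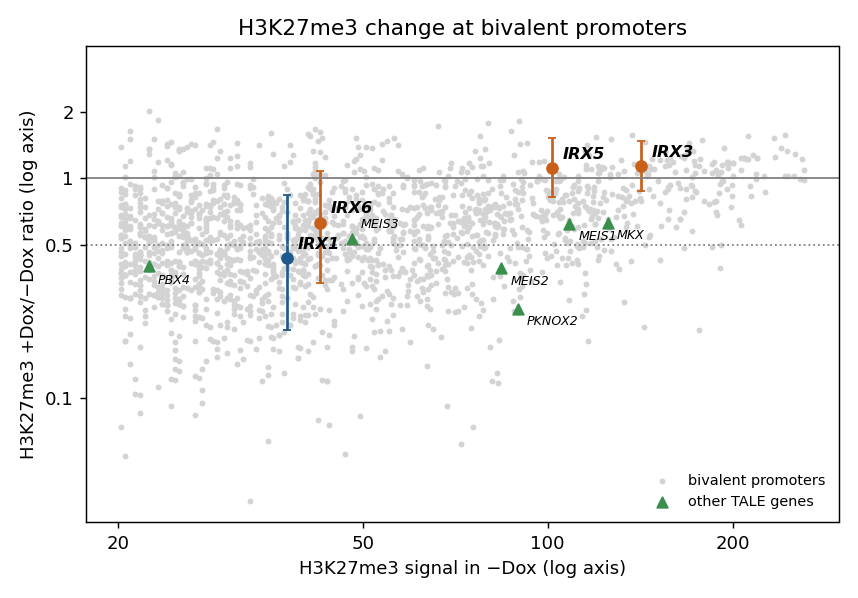
H3K27me3 signal in −Dox (horizontal axis) against the +Dox/−Dox ratio (vertical axis), both logarithmic, for the 1907 bivalent promoters (grey) with the 4 bivalent IRX promoters (large points with 95% counting intervals) and the 6 bivalent other TALE genes (triangles), and lines at 1 and 0.5. Ratios rise with the −Dox level, and IRX3 and IRX5 lie above 1 while IRX1 and IRX6 lie below 1, all within the cloud.

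The scaling of the libraries moved the chromosome 16 members relative to a ratio of 1. The H3K27me3 total over all promoters was 251063 in −Dox and 213388 in +Dox. Scaling both libraries to the same total multiplies every ratio by 1.18, and setting the median ratio of low promoters to 1 multiplies it by 0.927. With the same total, IRX3 had a ratio of 1.33 (1.03 to 1.73), IRX5 of 1.31 (0.965 to 1.80) and the chromosome 16 cluster of 1.24 (1.03 to 1.49), so that the intervals of IRX3 and of the cluster excluded 1. IRX1 then had a ratio of 0.513 (0.240 to 0.992). With the scaling over low promoters, IRX3 and IRX5 were at 1.05 and 1.04, the chromosome 16 cluster was at 0.976 (0.808 to 1.17), IRX6 was at 0.584 (0.311 to 1.00), and the chromosome 5 cluster was at 0.560, with the same interval as IRX6. This interval ended just below 1.

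The factor that scaled the deposited values was identical in both +Dox libraries, and whether it reflects the depth of each was not tested. A wrong factor would move all +Dox/−Dox ratios of a mark together. A ratio of ratios within the same libraries does not depend on scaling. The H3K27me3 ratio of IRX1 was 0.377 (0.172 to 0.789) times that of its counterpart IRX3, the only one of 8 such intervals (both marks, clusters and counterpart pairs) that excluded 1. These 2 genes differ in −Dox level, and bivalent promoters in their ranges had median ratios of 0.496 and 0.857. Whether the pair differs beyond this was not tested. The H3K4me3 ratios of this pair did not differ beyond counting error, at 1.01 (0.623 to 1.65). For IRX2 over IRX5 the value was 0.880 (0.158 to 4.89) in H3K27me3, which the 8 reads of IRX2 leave almost unbounded, and 0.749 (0.485 to 1.16) in H3K4me3. For IRX4 over IRX6 the H3K27me3 value had a lower bound of 0.955 only, and the H3K4me3 value was 0.843 (0.458 to 1.55). The intervals were not adjusted for their number.

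**Figure D3:**
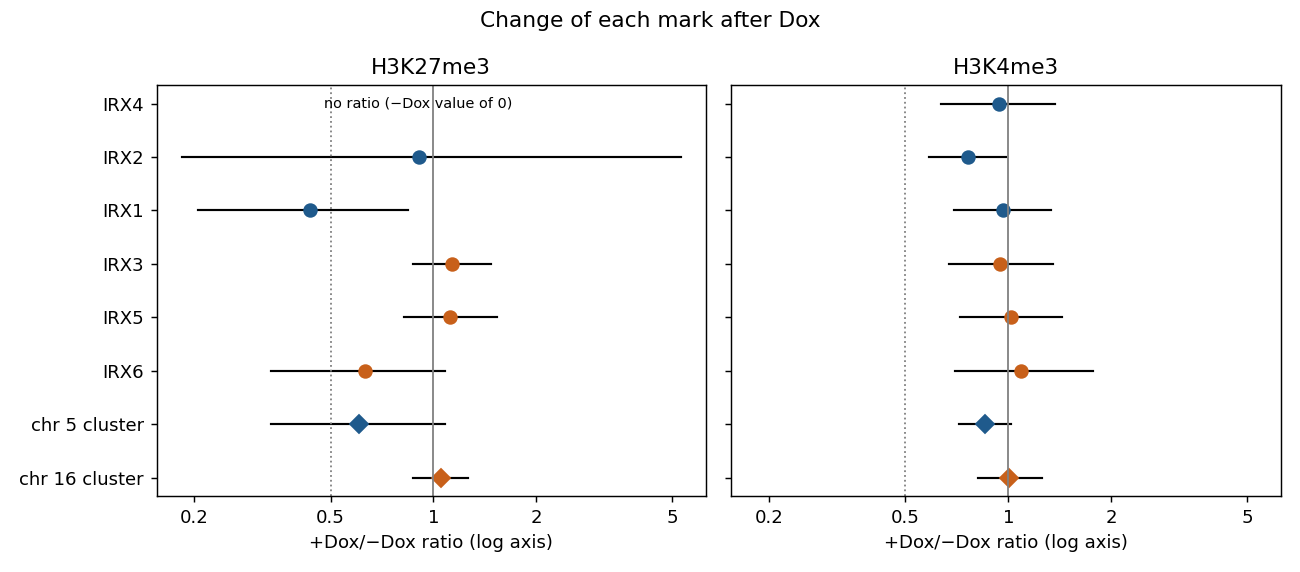
The +Dox/−Dox ratio (horizontal axis, logarithmic) of each IRX promoter (circles) and of each cluster's sum (diamonds) with its 95% counting interval, blue for chromosome 5 and orange for chromosome 16, with lines at 1 and 0.5, for H3K27me3 and H3K4me3. For H3K27me3 among single promoters only the interval of IRX1 (0.204 to 0.843) lies below 1, for H3K4me3 only that of IRX2 (0.588 to 0.982), and IRX4 has no H3K27me3 ratio because its −Dox value was 0.

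The H3K4me3 ratios of the members lay between 0.760 and 1.09. The summed signal was 517 in −Dox and 471 in +Dox, with a ratio of 0.912 (0.800 to 1.05). The chromosome 5 cluster had a ratio of 0.855 (0.717 to 1.02) and the chromosome 16 cluster one of 1.00 (0.817 to 1.25), and the former was 0.845 (0.640 to 1.12) times the latter. None of the 6 had an H3K4me3 ratio below 0.66, against 11.7% of all promoters. The interval lay below 1 at 1 of 6 (IRX2), against 4.35% of promoters above 20 in −Dox, and above 1 at none, against 1.75%. The quotient of H3K4me3 to H3K27me3 signal went from 2.36 to 5.23 at IRX1 and from 0.990 to 1.71 at IRX6. It went from 0.550 to 0.459 at IRX3 and from 0.766 to 0.697 at IRX5. The antibodies differ between the marks, so that only the change of the quotient can be read, and it depends on the scaling of all libraries. No interval was computed for this change. At IRX3, IRX5 and IRX6 the ratio intervals of both marks included 1.

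The promoters whose 4 values were most like those of a member were sought by Euclidean distance over log2(signal + 1). Among the members, IRX3 and IRX5 were the closest pair at 0.699, followed by IRX1 and IRX6 at 1.55, so that both closest pairs join genes that are not counterparts. IRX3 and IRX4 were the farthest apart at 8.62. Over all promoters, IRX3 was nearest to ZNF503 (0.286), MDGA1 (0.430) and T (0.471), and IRX5 to HRK (0.371), T (0.403) and IRF4 (0.422). T, the mesoderm regulator brachyury, was shared by both and had an H3K27me3 signal of 121 in −Dox and 128 in +Dox. IRX1 was nearest to NR1H2 (0.174), BMP2 (0.236), which encodes a bone morphogenetic protein, and HTR7 (0.284). All of these 3 were bivalent in −Dox and H3K4me3-only in +Dox, with H3K27me3 ratios between 0.461 and 0.481. This likeness to IRX1 follows from the choice by the same 4 values and is no separate result. The same holds for the promoters nearest to the other members. IRX6 was nearest to PRR16 (0.118), PHLDA2 (0.136) and IL17D (0.235). IRX2 was nearest to MRPL20 (0.136), TCP1 (0.314) and FZD5 (0.324), of which MRPL20 and TCP1 encode a mitochondrial ribosomal protein and a chaperonin subunit. IRX4 was nearest to C19orf47 (0.0678), PLD3 (0.0916) and SMNDC1 (0.217), and the first 2 of these share part of their windows.

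The other TALE homeobox genes (MEIS, PBX, PKNOX, TGIF and MKX) numbered 12. They are relatives of IRX in the same class, and several of them bind DNA together with HOX proteins. Of the 12, 6 were bivalent in −Dox, 5 were H3K4me3-only and 1 was unmarked. Of 11 with an H3K27me3 ratio, 4 were below 0.5 and 9 below 0.66, against the 21.5% and 33.6% of all promoters, and none was above 2. TGIF1, PBX3 and TGIF2, named after their values were seen, supplied 3 of the ratios below 0.66, and TGIF1 1 of those below 0.5, from about 4 reads each in −Dox. The median ratio of the 6 bivalent ones was 0.464 and none of the 6 was above 1, while that of the 4 bivalent IRX promoters was 0.873 and 2 were above 1. No test sets these lists against each other. MEIS2, a HOX cofactor, went from 84.1 to 32.8 in H3K27me3, with a ratio of 0.390 (0.236 to 0.619), and from 50.7 to 87.6 in H3K4me3, with a ratio of 1.73 (1.2 to 2.54). PKNOX2, a relative of the MEIS genes, went from 89.4 to 22.7 in H3K27me3, with a ratio of 0.254 (0.142 to 0.430). MKX, the tendon regulator Mohawk and a close relative of IRX, had 125 in −Dox, between IRX5 and IRX3, and 78.7 in +Dox, with a ratio of 0.629 (0.449 to 0.868). MEIS1 had 108 in −Dox, close to the level of IRX5, and 67.1 in +Dox, with a ratio of 0.619 (0.436 to 0.890). MEIS3 and PBX4 had H3K27me3 ratios of 0.529 (0.286 to 0.913) and 0.399 (0.135 to 0.961), and PBX4 became H3K4me3-only like IRX1. With the values as deposited, all 6 intervals lay below 1, against 48.6% of bivalent promoters. Among them were those of 2 genes with −Dox levels like those of IRX3 and IRX5. This depends on the scaling, since the same total multiplies every H3K27me3 ratio by 1.18. The upper bounds of MEIS1, MEIS3, MKX and PBX4 would then lie above 1. The share of bivalent promoters was not recomputed with that scaling.

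The DLX and HOX genes, homeobox genes of limb, face and body axis patterning, had more H3K27me3. The 6 DLX genes were all bivalent, with a median H3K27me3 signal of 170 in −Dox and 172 in +Dox and a median ratio of 0.930. The 39 HOX genes had a median of 193 in −Dox and 217 in +Dox and a median ratio of 1.13, and none had a ratio below 0.5. The IRX promoters had more H3K4me3 than both, with no test of the difference. Their median H3K4me3 signal was 77.9 in −Dox and 76.4 in +Dox, against 38.8 and 25 for DLX and 12.8 and 8.95 for HOX. Of the HOX genes 29 were H3K27me3-only and 9 bivalent in −Dox.

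The members of a cluster are far apart. IRX4 and IRX2 starts are 864 kb apart, IRX2 and IRX1 844 kb, IRX3 and IRX5 644 kb and IRX5 and IRX6 393 kb. Within the clusters and 500 kb outside them, both clusters had an SLC6A monoamine transporter gene and an LPCAT lysophospholipid acyltransferase gene among their neighbours. The transporter genes were bivalent. SLC6A3, the dopamine transporter gene 442 kb from IRX4, had an H3K27me3 signal of 50.6 in −Dox and 70.1 in +Dox, with a ratio of 1.39 (0.902 to 2.12). SLC6A2, the noradrenaline transporter gene 332 kb from IRX6, had 45.6 in −Dox and 33.6 in +Dox, with a ratio of 0.735 (0.431 to 1.25). LPCAT1 and LPCAT2 were H3K4me3-only, with H3K27me3 values of 6.71 to 8.75. The promoters between or next to IRX promoters otherwise had little H3K27me3. MMP2, a matrix metalloproteinase gene 65.5 kb from IRX6, had 3.8 and 8.2 in −Dox and +Dox, the RP11-324D17.1 start 16 kb from IRX3 had 5.32 and 1.12, and CAPNS2 had 2.28 and 4.10. High H3K27me3 at the IRX3 start was thus not seen at a start 16 kb away.

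The lower H3K4me3 of IRX2 in +Dox was also read at C5orf38, the divergent transcript whose start lies 486 bases from that of IRX2. It had 170 in −Dox and 128 in +Dox, but its window overlaps that of IRX2 almost completely and is no second measurement. MRPL36 and NDUFS6, which share a bidirectional promoter 85.9 and 85.8 kb from IRX4, had lower H3K4me3 in +Dox as well. MRPL36 went from 157 to 97.3, with a ratio of 0.619 (0.462 to 0.811), and NDUFS6 from 153 to 102, with a ratio of 0.665 (0.504 to 0.877). These windows also overlap and share reads. LPCAT1, with 85.5 in −Dox and 92.8 in +Dox, did not show this.

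**Figure D4:**
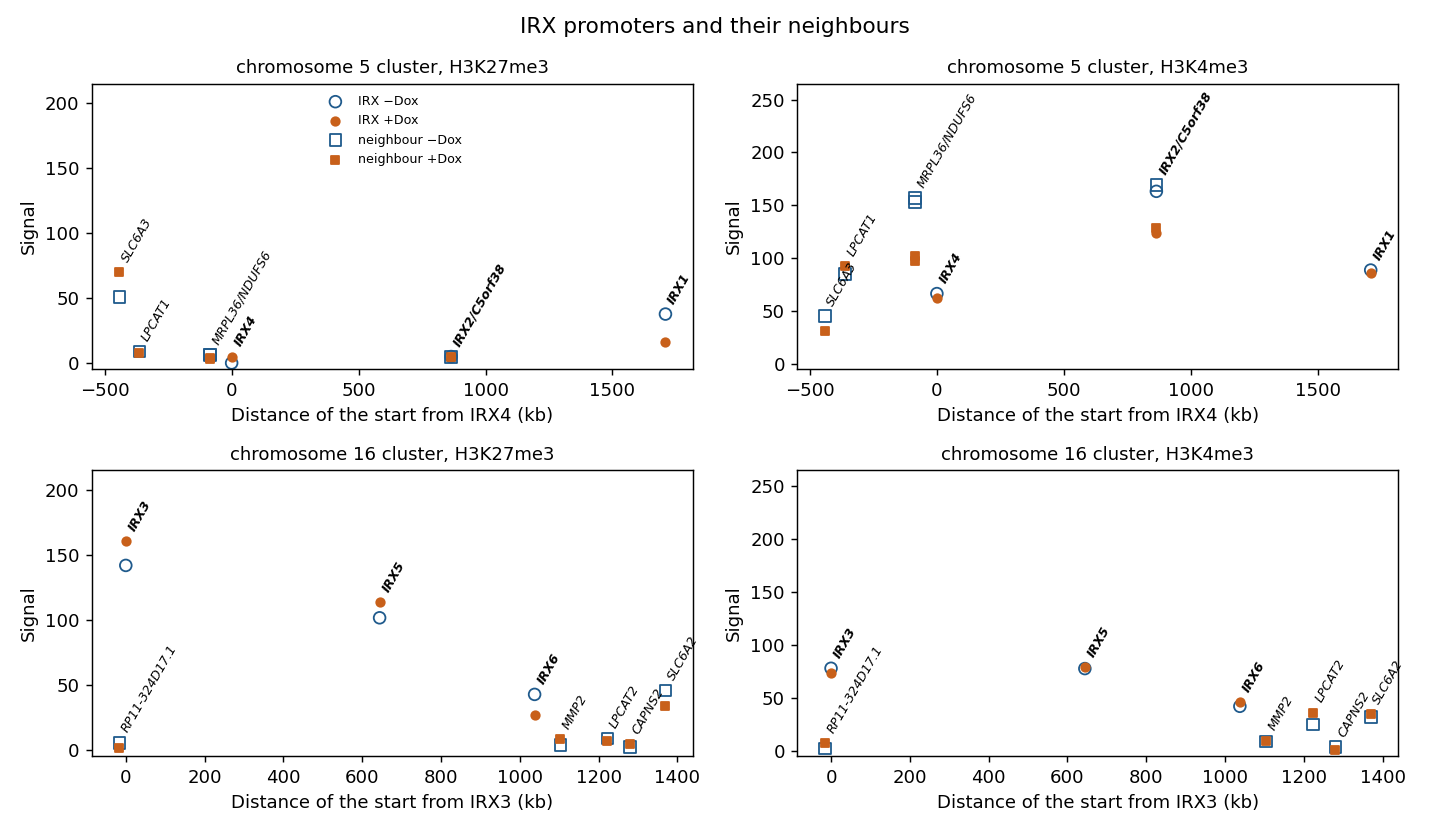
Signal (vertical axis, summed coverage) of H3K27me3 and H3K4me3 at the IRX promoters (circles) and at every other measured promoter within the clusters or up to 500 kb outside them (squares), by distance of the start from IRX4 or IRX3 in kb, with open symbols for −Dox and filled ones for +Dox. H3K27me3 stands out at IRX1, IRX3, IRX5 and IRX6 and, on the flanks, at SLC6A3 and SLC6A2, while the promoters between them are below 10.

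The sequence of the windows was compared because H3K27me3 in embryonic stem cells is commonly found at CpG-rich promoters. Over the 6 kb measured, IRX5 had 552 CpG, IRX2 533, IRX3 509, IRX1 378, IRX4 323 and IRX6 203, against a median of 156 over 18220 windows and of 219 over 1746 bivalent ones. IRX2, IRX3 and IRX5 were at or above percentile 99.9. IRX2, with 4 reads in each H3K27me3 library, was as CpG-rich as IRX3 and IRX5, and IRX6, bivalent in both conditions, had the fewest. A relation of CpG content to H3K27me3 was not tested. GC content was 65.8% at IRX3, 64.9% at IRX2, 64.8% at IRX5, 63.1% at IRX4, 58.8% at IRX1 and 52.2% at IRX6. The CpG lay differently along the windows. In bins of 500 bases, IRX1 peaked at 86 and IRX2 at 89 just downstream of the start, and IRX1 had 17 or fewer in 6 of its 12 bins. IRX3 and IRX5 had at least 24 and 17 CpG in every bin.

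**Figure D5:**
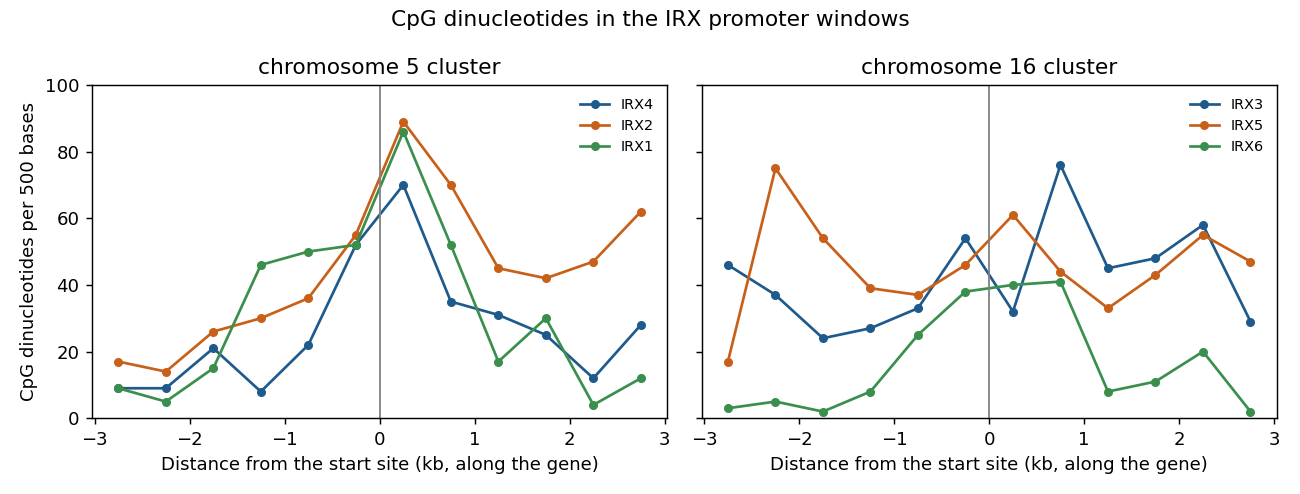
Number of CpG dinucleotides per 500 bases of GRCh37 (vertical axis) by distance from the listed start in kb (horizontal axis), along the direction of the gene, in the 6 IRX windows. IRX3 and IRX5 have CpG over the whole window, IRX1 and IRX6 mainly around the start, and IRX2 is as rich as IRX3 and IRX5.

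The windows also hold other annotated starts, whose signal cannot be told apart from that of the IRX gene. Long noncoding RNAs start 469 bases from IRX2 (IRX2-DT), 1183 bases from IRX3, 114 bases from IRX4, 277 and 1676 bases from IRX5 (the latter is CRNDE) and 1517 bases from IRX6. No other annotated gene starts in the window of IRX1. Exons of the gene itself covered 41.6% of the window at IRX3, 37% at IRX5, 24.4% at IRX6, 21.8% at IRX2, 9.17% at IRX1 and 6.25% at IRX4.

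The pairing of counterparts used above is also seen in the proteins. From the coding sequences of GENCODE, the proteins are 446 to 519 residues long. Identity is given as identical aligned residues over the length of the shorter protein. It was 47.7% for IRX1 and IRX3, 49.7% for IRX2 and IRX5 and 46.2% for IRX4 and IRX6, whereas every other pair was at 35.8% to 41.0%. In the homeodomain, 63 of 63 residues were the same between IRX2 and IRX5, 62 between IRX1 and IRX3 and 59 between IRX4 and IRX6. IRX1 and IRX6, which are not counterparts, also shared 59. The pair with an identical homeodomain, IRX2 and IRX5, thus had H3K27me3 signals of 4.94 and 102 in −Dox.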

How the data were processed

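H3K27me3 and H3K4me3 were measured in JMJD3c-hESCs without and with Dox, with 1 ChIP-seq library in each of 4 groups, taken from the labels. The authors used a MiSeq for single-end reads, aligned these to hg19 with Bowtie2 (version not given in the sources used here), removed mitochondrial reads and computed coverage with ngs.plot. The submitters' processing notes also name CASAVA 1.4. The deposited signal is coverage scaled to the library and summed over 3 kb on each side of the start, for 1 transcript per Ensembl gene. The study's methods also scale profiles to the mean density past the transcription ends. Whether the deposited signal had this is not given in the sources used here. Values include background, as an input library was not analysed here, and a genome-wide loss would be hidden by the scaling to the library. The study reported less total H3K27me3 after Dox by immunoblot.

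All values (100%, within 0.01 of a step) were whole multiples of a step of 0.380, 0.373, 0.285 and 0.373 in H3K27me3 −Dox, H3K27me3 +Dox, H3K4me3 −Dox and H3K4me3 +Dox. Read as the share that 1 read has in its library, these steps would mean libraries of 2629351, 2682085, 3509244 and 2682085 reads. The step was identical (0.372844261) in both +Dox libraries, although only 3.37% of promoters had the same value in them, so it may not reflect the depth of each. A read was taken to cover 3.34, 3.35, 3.41 and 3.37 steps, an estimate from the first peak of the values. Approximate reads were values divided by step and steps per read, 197558, 170932, 945917 and 713752 in all windows, and were used only for intervals, which cover counting error only. Level intervals are exact Poisson, ratio intervals exact Clopper-Pearson and ratios of ratios conditional odds ratios with exact intervals, computed with scipy 1.17.1 in Python 3.11.15. The ratio intervals were tested on simulated read counts without a scaling between libraries. Only promoters with more reads than IRX2 and IRX4 had in H3K27me3 were covered. That simulation did not test the conversion of signal to reads, on which all intervals rest. Classes used −Dox values above 20, and ratios had no pseudocount.

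Positions come from matching transcripts to GENCODE 44 on GRCh37 (18244 matched, or 90.1%), and C5orf38 was placed by its gene identifier. Sequences are from GRCh37, and the upstream sequences of the remaining members are not reported here. The RefSeq promoter table is on another build and was not used here. The homeodomain was located by its sequence motif, and proteins were aligned with Biopython 1.88.

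The genes named are the 6 members, the neighbours within 500 kb of a cluster, the 3 promoters nearest to each member over 4 values, and the TALE genes that were bivalent or had a −Dox value above 20 with a ratio below 0.5 or above 2. The members and the gene lists were chosen with earlier results of these data known. Alternatives were other scalings, thresholds of 10 and 40, classes from +Dox, 5 added to both values, subtraction of a background median, and members within 1000 bases of the canonical start. Classes on the mean of both conditions were added after seeing the data.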

Additional observations from a re-analysis of the deposited data

How the results depend on the processing

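Of 94 values recomputed for 24 results, 88 stayed within counting error, or within 1.5 times for counts, of the value given, 6 moved beyond it, and no ratio whose interval excluded 1 changed direction. Of the ratios whose interval included 1, some crossed 1. With the same total, H3K27me3 of all 6 promoters went from 0.994 to 1.17 and of IRX2 from 0.905 to 1.06. With the scaling over low promoters, H3K27me3 of the chromosome 16 cluster went from 1.05 to 0.976, and with background subtracted its H3K4me3 went from 1.00 to 0.993. Subtracting the background median moved the H3K27me3 ratio of the chromosome 5 cluster from 0.604 to 0.322, and its ratio to that of the chromosome 16 cluster from 0.580 to 0.304, because the signal of IRX2 and IRX4 lies below the background. The number of IRX promoters with an H3K27me3 ratio below 0.5 went from 1 to 0, and that below 0.66 from 2 to 1, both with libraries scaled to the same total and with 5 added to both values. IRX1 then had ratios of 0.513 and 0.502. The number of bivalent members was 4 at a threshold of 10 and 3 at a threshold of 40 or from +Dox values. Without IRX4, whose listed start is away from the canonical one, the ratio of the cluster ratios was 0.470 for H3K27me3 and 0.823 for H3K4me3. No value could be given for the H3K27me3 ratio of IRX4, or for that of IRX2 after subtraction. No paired analysis was possible because there was a single library per group and no test was run. Depth limits the H3K27me3 values, since 1 read was worth 1.27 in −Dox and 1.25 in +Dox and the median promoter had a signal of 6.09 and 5.97.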
